A study of Mus musculus with 23 samples.

Results

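The desmosome genes described here are 10 genes, Dsg2, Dsg3, Dsc1, Dsc2, Dsc3, Pkp1, Pkp3, Dsp, Jup and Perp, followed across 5 groups of mouse oral tumours. Their members were taken as every probe of the scanner table whose gene symbol in the platform annotation is one of these names. That gave 11 probes for 9 of the 10 genes, out of 16593 genes with a probe. Dsp, the desmoplakin gene, had no probe under its symbol and was not analysed here. Dsg2 had 3 probes and each of the other 8 genes had 1.

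Total RNA was profiled on Illumina MouseRef-8 v2 arrays in 23 oral tumours of C57BL/6 mice, 1 array per tumour, after 21 days of growth. KHR-N-/- tumours (n = 5) carried no intact Notch1 copy, KHR-N+/- tumours (n = 4) carried 1, and KHR tumours (n = 5) were labelled with no change of Notch1. The KR type had KR-N-/- tumours (n = 4) and KR-N+/- tumours (n = 5), and no KR tumours with unchanged Notch1 were analysed here. What KHR and KR stand for is not spelled out in the labels, which give no promoter, Cre line, age or litter. Biological replicates are numbered, but whether each was a different mouse is not said; a p-value therefore refers to spread among these samples, part of which may be technical.

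Desmosomes are button-like junctions that tie the keratin filaments of neighbouring epithelial cells to each other. Desmogleins (Dsg) and desmocollins (Dsc) are cadherins that bind across the gap between cells. Plakoglobin (Jup) and the plakophilins (Pkp) are armadillo proteins that hold the cadherin tails, and desmoplakin links them to keratin. Perp is a tetraspan membrane protein, a p53 and p63 target needed for desmosome assembly in stratified epithelia. Dsg3 is the autoantigen of pemphigus vulgaris, and Dsc1 and Dsg1 are proteins of the upper, more differentiated layers of stratified epithelia. Notch1 is a receptor that promotes keratinocyte differentiation.

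Values are log2 intensities after background correction and quantile normalization, on which a difference of 1 is a doubling. A probe was counted as detected on an array at a detection p-value under 0.05. A gene was said to rise or fall where limma's moderated test, adjusted by the Benjamini-Hochberg method over all 9732 genes tested, gave an adjusted p under 0.05. Levels of different probes are not comparable with each other, and folds of dim probes are understated because a constant of 16 was added to the intensities before the log.

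Arrays differed in brightness, with mean intensities of 142.4 to 366.4, and the group averages were lower in the KR type (192 in KR-N-/-, 214 in KR-N+/-) than in the KHR type (262 in KHR-N-/-, 311 in KHR-N+/-, 261 in KHR). Between 10353 and 12654 probes were detected per array. The squamous markers Krt5, Krt14 and Krt13 were detected on all 23 arrays. Notch1 was lowest in the N-/- tumours, at 5.40 to 5.80 in KHR-N-/- tumours and 5.61 to 6.52 in KR-N-/- tumours, against 7.81 to 8.67 in KHR tumours and 7.44 to 8.13 in KR-N+/- tumours. KHR-N+/- tumours held 6.60, 7.52, 5.68 and 7.40, so the library labelled KHR-N+/- replicate 3 lay within the KHR-N-/- range. Where on Notch1 the probe lies relative to the deleted part is not given. Markers of other cells differed between groups, and a bulk tumour cannot tell fewer cells of a type from less RNA per cell.

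Of the 9 genes with a probe, 8 passed the filter of detection on at least 4 arrays. The filter used every group, and only Dsc2 failed it. Over 6 group comparisons and the interaction, which gave 56 gene differences, 3 passed. Dsg3 fell and Pkp1 rose in KR-N-/- tumours against KR-N+/- tumours, and Pkp3 was lower in KHR-N-/- tumours than in KR-N-/- tumours on quantile-normalized values. With median scaling the Pkp3 difference was 0.18, where the median of all genes was 0.39, so it stood at -0.21 relative to that median and did not pass. In a moderated F test over the 5 groups, Dsg3 (adjusted p = 0.00735, limma) and Pkp3 (adjusted p = 0.0358) differed, 2 of 8 members, where 33% of all genes passed.

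**Figure D1:**
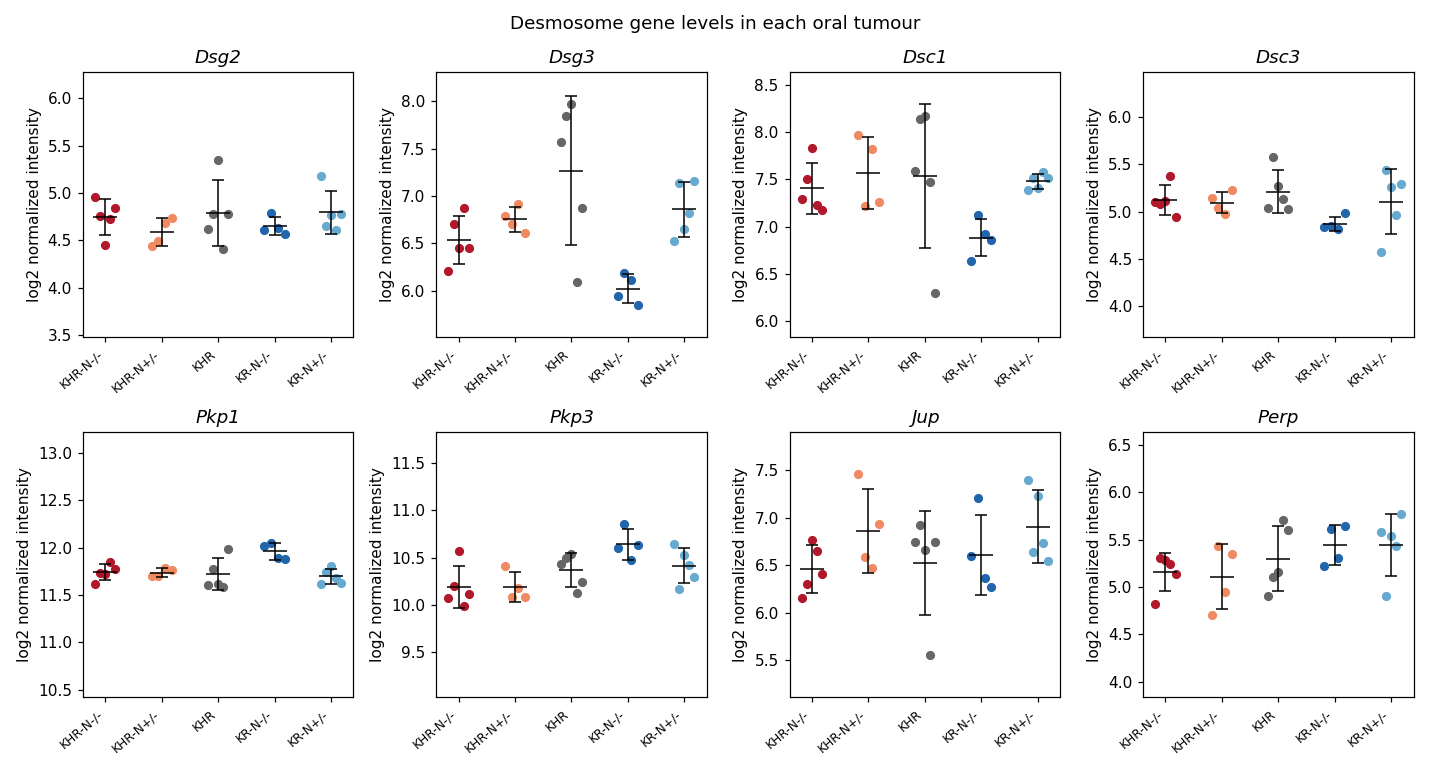
Each panel plots 1 desmosome gene, with the log2 normalized intensity of every tumour as a point and the group mean and SD as bars; all panels span the same number of log2 units. The 4 KR-N-/- tumours lie at 5.85 to 6.19 for Dsg3, below all 5 KR-N+/- tumours at 6.52 to 7.16, and KHR tumours spread widest for Dsg3 and Dsc1.

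Among the cadherins, Dsg3 changed most. Dsg3 measured 5.94, 6.19, 6.11 and 5.85 in KR-N-/- tumours, against 6.52, 7.14, 6.65, 6.82 and 7.16 in KR-N+/- tumours. Every KR-N-/- tumour was below every KR-N+/- tumour. The difference was -0.84 (SE 0.26, 95% interval -1.36 to -0.31, adjusted p = 0.0288, limma), or 1.78-fold lower. In this comparison 16.2% of all genes passed and 6.63% passed with a fall, and 2 of 8 members passed, 1 in each direction.

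The fall of Dsg3 in KR-N-/- tumours was called in 10 of 14 alternative settings, with differences of -1.02 to -0.43. It missed the threshold without background correction (-0.43), with median scaling (-0.75), with no detection filter (adjusted p = 0.0595) and with the fibroblast marker mean as a covariate (-0.55, adjusted p = 0.585, limma). Leaving out single tumours ended the call for KR-N+/- replicate 2 (adjusted p = 0.0618) and 5 (0.064), and for KR-N-/- replicate 1 (0.0668), 2 (0.0507) and 4 (0.0758).

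Beside this fall, the fibroblast markers averaged 7.55 ± 0.13 in KR-N-/- tumours and 6.72 ± 0.18 in KR-N+/- tumours (SD of the list mean over tumours), with 10 of 16 higher and none lower. The endothelial markers averaged 6.46 ± 0.08 in KR-N-/- tumours and 5.89 ± 0.13 in KR-N+/- tumours, with 3 of 11 higher. The 21 measured epithelial markers outside desmosomes averaged 8.13 ± 0.08 in KR-N-/- tumours and 8.16 ± 0.06 in KR-N+/- tumours. Of these, Itgb4 (1.15) and Itga6 (0.79), the integrin subunits of hemidesmosomes, rose, and Prss8 (-1.04), Elf3 (-0.78) and Esrp2 (-0.37) fell; Elf3 and Esrp2 were chosen for naming after their values were seen. With the fibroblast covariate 19 genes of the whole table passed in this comparison, against 1581 without it. The fibroblast mean did not overlap between KR-N-/- (7.38 to 7.67) and KR-N+/- tumours (6.53 to 6.94). Nor did it overlap between KHR-N-/- (7.41 to 8.11) and KHR tumours (6.24 to 7.31). In both comparisons this covariate thus followed the group, and the part of fibroblasts was not tested.

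In the KHR type, Dsg3 did not pass in any comparison. It measured 6.21, 6.70, 6.45, 6.87 and 6.45 in KHR-N-/- tumours, 6.79, 6.70, 6.91 and 6.61 in KHR-N+/- tumours, and 7.57, 7.84, 7.97, 6.09 and 6.87 in KHR tumours. KHR replicates 1, 2 and 3 stood above all tumours with a Notch1 change, while KHR replicate 4 was below every tumour of the other KHR-type groups. KHR-N-/- minus KHR was -0.73 (SE 0.24, 95% interval -1.23 to -0.24, adjusted p = 0.0646, limma), and KHR-N+/- minus KHR was -0.51 (interval -1.04 to 0.02, adjusted p = 0.475).

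The KHR-type result for Dsg3 depended on single KHR tumours. Without KHR replicate 4 the KHR-N-/- difference was -1.03 (adjusted p = 0.000592, limma), and without KHR replicate 5 it was -0.83 (adjusted p = 0.0292). Without KHR replicate 2 or 3 it was -0.59 or -0.56 and did not pass. The marker means of other cells also differed on these arrays: KHR replicate 4 had the lowest epithelial marker mean of the KHR tumours (7.93, group mean 8.21), and KHR replicate 5 had a fibroblast marker mean of 7.31, above the KHR group mean of 6.52. The fibroblast markers averaged 7.72 ± 0.26 in KHR-N-/- tumours and 6.52 ± 0.45 in KHR tumours (14 of 16 higher), and the skeletal muscle markers 7.58 ± 0.16 in KHR-N-/- tumours and 6.81 ± 0.25 in KHR tumours (13 of 18 higher). With the fibroblast mean as a covariate the KHR-N-/- difference was -0.33 (adjusted p = 0.838), and with the skeletal muscle mean it was -0.13 (adjusted p = 0.896).

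The order of the groups for Dsg3 was KHR (7.27 ± 0.78), KR-N+/- (6.86 ± 0.29), KHR-N+/- (6.76 ± 0.13), KHR-N-/- (6.53 ± 0.25) and KR-N-/- (6.02 ± 0.15). Only the last step, 0.51 between the N-/- groups, was larger than the SDs of its neighbours and without overlap. As a comparison, KHR-N-/- minus KR-N-/- was 0.51 (SE 0.26, interval -0.02 to 1.04) and did not pass (adjusted p = 0.191, limma).

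Dsc1, the desmocollin of upper layers, had the same order at its low end. It measured 6.64, 7.12, 6.92 and 6.86 in KR-N-/- tumours, against 7.39, 7.51, 7.41, 7.58 and 7.51 in KR-N+/- tumours. The groups did not overlap, but the difference of -0.60 (SE 0.26, interval -1.13 to -0.07) missed the threshold (adjusted p = 0.112, limma). It passed in 4 of 14 alternative settings, which were the fit of only these groups (adjusted p = 0.0035), array weights (0.0369), the replicate block (-0.72, 0.0322) and KHR replicate 5 with KHR-N+/- replicate 3 left out (0.0193), and also without KHR replicate 5 alone (0.0182). The Dsc1 difference turned to 0.23 with the fibroblast marker mean as a covariate (adjusted p = 0.813, limma). Under median scaling it was -0.55 (adjusted p = 0.998). Dsg3, Dsc1 and Pkp1 were the 3 of 8 members without overlap here, where 18.5% of all genes had none.

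In KHR-N-/- tumours Dsc1 measured 7.29, 7.50, 7.83, 7.23 and 7.18, all above the KR-N-/- tumours, with a difference of 0.52 (interval -0.01 to 1.05, adjusted p = 0.184, limma). KHR-N+/- tumours held 7.97, 7.22, 7.82 and 7.26, and KHR tumours held 7.59, 8.14, 8.17, 7.47 and 6.30. The lowest of all 23 values was that of KHR replicate 5, so the KHR group spanned both ends of the range. KHR-N-/- minus KHR was -0.13 (interval -0.63 to 0.37) and KHR-N+/- minus KHR was 0.03 (interval -0.50 to 0.56), neither past the threshold.

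Dsc3, the desmocollin of basal layers, was measured near the dim end. It held 4.84, 4.85, 4.82 and 4.98 in KR-N-/- tumours, against 4.57, 5.44, 5.26, 4.96 and 5.29 in KR-N+/- tumours. The groups overlapped through KR-N+/- replicate 1, which was the 1 array where the probe was not detected. They also overlapped through KR-N+/- replicate 4 (4.96), which was below KR-N-/- replicate 4 (4.98). The difference was -0.24 (interval -0.53 to 0.06, adjusted p = 0.271, limma). KHR-N-/- tumours ranged from 4.94 to 5.38, KHR-N+/- tumours from 4.97 to 5.23 and KHR tumours from 5.03 to 5.58. Only the step from KHR-N+/- (5.10 ± 0.11) down to KR-N-/- (4.87 ± 0.07) in the order of groups was larger than the SDs beside it, and these groups overlapped.

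Dsg2, the desmoglein found in all desmosome-bearing tissues, was dim and differed in no comparison. Its tested probe was detected on 21 of 23 arrays and ranged from 4.45 to 4.96 in KHR-N-/- tumours, 4.44 to 4.74 in KHR-N+/- tumours, 4.41 to 5.35 in KHR tumours, 4.57 to 4.79 in KR-N-/- tumours and 4.61 to 5.18 in KR-N+/- tumours. All neighbouring groups in its order overlapped. KR-N-/- minus KR-N+/- was -0.15 (interval -0.45 to 0.16, limma), and KHR-N-/- minus KHR was -0.04 (interval -0.33 to 0.25).

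The 2 other Dsg2 probes were each detected on 3 arrays and were not tested. One of them read 6.17 in KHR replicate 3, against 4.17 to 4.30 in the other KHR tumours, and the tested probe was also highest in that tumour (5.35). The same dim probe read 4.56 and 4.82 in KR-N-/- replicates 1 and 2, where the tested probe read 4.61 and 4.79. On the other 20 arrays this dim probe was not detected, so it gives no order of the tumours there.

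The Dsc2 probe, for the desmocollin with the widest tissue range, was not detected on any of the 23 arrays. Its values lay between 4.09 and 4.31, with detection p-values of 0.188 to 0.999. No level or difference can be read from it, which says nothing about the protein.

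The 4 measured cadherins were all below 0 in KR-N-/- against KR-N+/- tumours, with quantile normalization and with median scaling, and 1 of them passed. Over all genes 44.5% were below 0. In KHR-N-/- against KHR tumours they were again all below 0, where 48.2% of all genes were, and none passed. After median scaling only Dsg3 (-0.57) was below 0 there, and Dsg2 (0.001), Dsc3 (0.03) and Dsc1 (0.04) were above 0. Median scaling shifted all genes by a median of 0.11 there, and the cadherins then stood at -0.69 (Dsg3) to -0.07 (Dsc1) relative to that shift. Dsc3, Dsc2, Dsc1, Dsg3 and Dsg2 lie in 1 cluster of neighbouring genes with Dsg1a, Dsg1b, Dsg1c and Dsg4 in the RefSeq gene table of the GRCm38.p6 assembly.

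Of the genes for armadillo proteins, Pkp1 rose in KR-N-/- against KR-N+/- tumours. Pkp3 differed between the N-/- groups of the tumour types, on quantile-normalized values only. Pkp1, the plakophilin of the upper layers of stratified epithelia, measured 12.02, 12.05, 11.89 and 11.88 in KR-N-/- tumours, against 11.62, 11.74, 11.81, 11.68 and 11.63 in KR-N+/- tumours. Every KR-N-/- tumour was above every KR-N+/- tumour. The difference was 0.26 (SE 0.09, interval 0.08 to 0.44, adjusted p = 0.0488, limma), or 1.20-fold higher, and 9.62% of all genes passed with a rise.

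The rise of Pkp1 in KR-N-/- tumours was called in 8 of 14 alternative settings (0.08 to 0.28). Of 23 fits that left out 1 tumour, 4 called it, those without KR-N+/- replicate 3 or without KHR replicate 3, 4 or 5, and the adjusted p of the others reached 0.133. With the fibroblast marker mean as a covariate it was 0.08 (adjusted p = 0.867, limma), and with median scaling it was 0.10 (adjusted p = 0.998).

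Outside KR-N-/- tumours the Pkp1 groups had nearly the same mean. It measured 11.62, 11.73, 11.72, 11.85 and 11.78 in KHR-N-/- tumours, 11.70, 11.70, 11.79 and 11.76 in KHR-N+/- tumours, and 11.61, 11.78, 11.62, 11.59 and 11.99 in KHR tumours. KHR replicate 5 was the highest of the KHR-type tumours. KHR-N-/- minus KHR was 0.02 (interval -0.15 to 0.20) and KHR-N-/- minus KHR-N+/- was 0.00 (interval -0.18 to 0.18). The KR-type estimate of 0.26 lay outside both intervals, but its own interval (0.08 to 0.44) overlapped both. The Pkp1 interaction between the types did not pass (adjusted p = 0.611, limma). KHR-N-/- minus KR-N-/- was -0.22 (interval -0.40 to -0.03) without overlap, did not pass (adjusted p = 0.109, limma) and was 0.06 with median scaling relative to the median of all genes (0.45 less a shift of 0.39).

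Pkp3, which binds a wide range of desmosomal proteins in all layers, measured 10.07, 10.20, 10.57, 9.99 and 10.12 in KHR-N-/- tumours, against 10.60, 10.86, 10.47 and 10.63 in KR-N-/- tumours. KHR-N-/- replicate 3 alone reached into the KR-N-/- range. The difference was -0.45 (SE 0.13, interval -0.71 to -0.19, adjusted p = 0.0216, limma), or 1.37-fold lower. In this comparison 12.8% of all genes passed and 6.5% passed with a lower level, and 1 of 8 members did. Dsg3, Dsc1 and Pkp1 were the 3 members without overlap, where 20.1% of all genes had none.

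The Pkp3 difference depended on how arrays of unequal brightness were brought together. With median scaling it was 0.18 (adjusted p = 0.666, limma), where the median of all genes was 0.39, so it stood at -0.21 relative to that median. With the mean intensity of the array as a covariate it was -0.40 (adjusted p = 0.12). Among the other 12 alternatives it passed in all. Leaving out KR-N-/- replicate 2 (adjusted p = 0.0893), KR-N-/- replicate 4 (0.052) or KHR-N-/- replicate 4 (0.0603) ended the call. Some markers of other cells also differed. Neutrophil markers averaged 7.70 ± 0.11 in KHR-N-/- tumours and 7.02 ± 0.17 in KR-N-/- tumours, with 3 of 6 higher, and macrophage markers 5.68 ± 0.16 in KHR-N-/- tumours and 5.30 ± 0.23 in KR-N-/- tumours, with 2 of 8 higher. The 3 higher neutrophil markers were S100a8 (1.39), S100a9 (1.35) and Retnlg (0.96). Cxcr2 (0.45), Csf3r (-0.08) and Elane (-0.02), named after their values were seen, did not pass, so the list did not move as a whole. Endothelial markers averaged 6.06 ± 0.21 in KHR-N-/- tumours and 6.46 ± 0.08 in KR-N-/- tumours, with 1 of 11 lower and a median of -0.37. Skeletal muscle markers averaged 7.58 ± 0.16 in KHR-N-/- tumours and 7.97 ± 0.42 in KR-N-/- tumours, with 2 of 18 lower, and fibroblast markers averaged 7.72 ± 0.26 in KHR-N-/- tumours and 7.55 ± 0.13 in KR-N-/- tumours. Pkp3 passed with the fibroblast (-0.41) or the muscle (-0.48) mean as a covariate, and the part of the other cell types in the result was not tested.

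Within types Pkp3 passed nowhere. It measured 10.64, 10.17, 10.53, 10.42 and 10.30 in KR-N+/- tumours, overlapping the KR-N-/- tumours, and KR-N-/- minus KR-N+/- was 0.23 (interval -0.03 to 0.49, adjusted p = 0.224, limma). It measured 10.41, 10.08, 10.18 and 10.08 in KHR-N+/- tumours and 10.43, 10.50, 10.54, 10.13 and 10.24 in KHR tumours. KHR-N-/- minus KHR was -0.18 (interval -0.43 to 0.07). Between the types, KHR-N+/- minus KR-N+/- was -0.23 (interval -0.49 to 0.04) with overlap, and did not pass (adjusted p = 0.329, limma). In the order of groups the 2 KR groups were highest, and only the step from KR-N-/- (10.64 ± 0.16) to KR-N+/- (10.41 ± 0.18) was larger than the SDs beside it.

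Jup, which binds both desmosomal and classical cadherins, varied more between tumours of a group than between groups. It measured 6.15, 6.30, 6.77, 6.65 and 6.41 in KHR-N-/- tumours, 7.46, 6.59, 6.47 and 6.93 in KHR-N+/- tumours, and 6.74, 6.92, 6.66, 5.55 and 6.75 in KHR tumours. KHR replicate 4 stood far below the other KHR tumours. KR-N-/- tumours held 6.60, 7.21, 6.36 and 6.27, against 7.40, 6.64, 7.23, 6.73 and 6.54 in KR-N+/- tumours, and all groups overlapped. KR-N-/- minus KR-N+/- was -0.30 (interval -0.83 to 0.23) and KHR-N-/- minus KHR-N+/- was -0.41 (interval -0.94 to 0.12), and no comparison passed in the limma fit.

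Perp, the tetraspan member, had overlapping groups in every comparison. It ranged from 4.82 to 5.31 in KHR-N-/- tumours, 4.70 to 5.43 in KHR-N+/- tumours, 4.91 to 5.71 in KHR tumours, 5.22 to 5.64 in KR-N-/- tumours and 4.90 to 5.77 in KR-N+/- tumours. KR-N-/- minus KR-N+/- was 0.00 (interval -0.38 to 0.38), KHR-N-/- minus KHR was -0.14 (interval -0.50 to 0.22), and KHR-N+/- minus KR-N+/- was -0.34 (interval -0.72 to 0.05). None passed. With median scaling the last of these was 0.26, where the median of all genes was 0.65, so Perp stood at -0.39 relative to it.

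**Figure D2:**
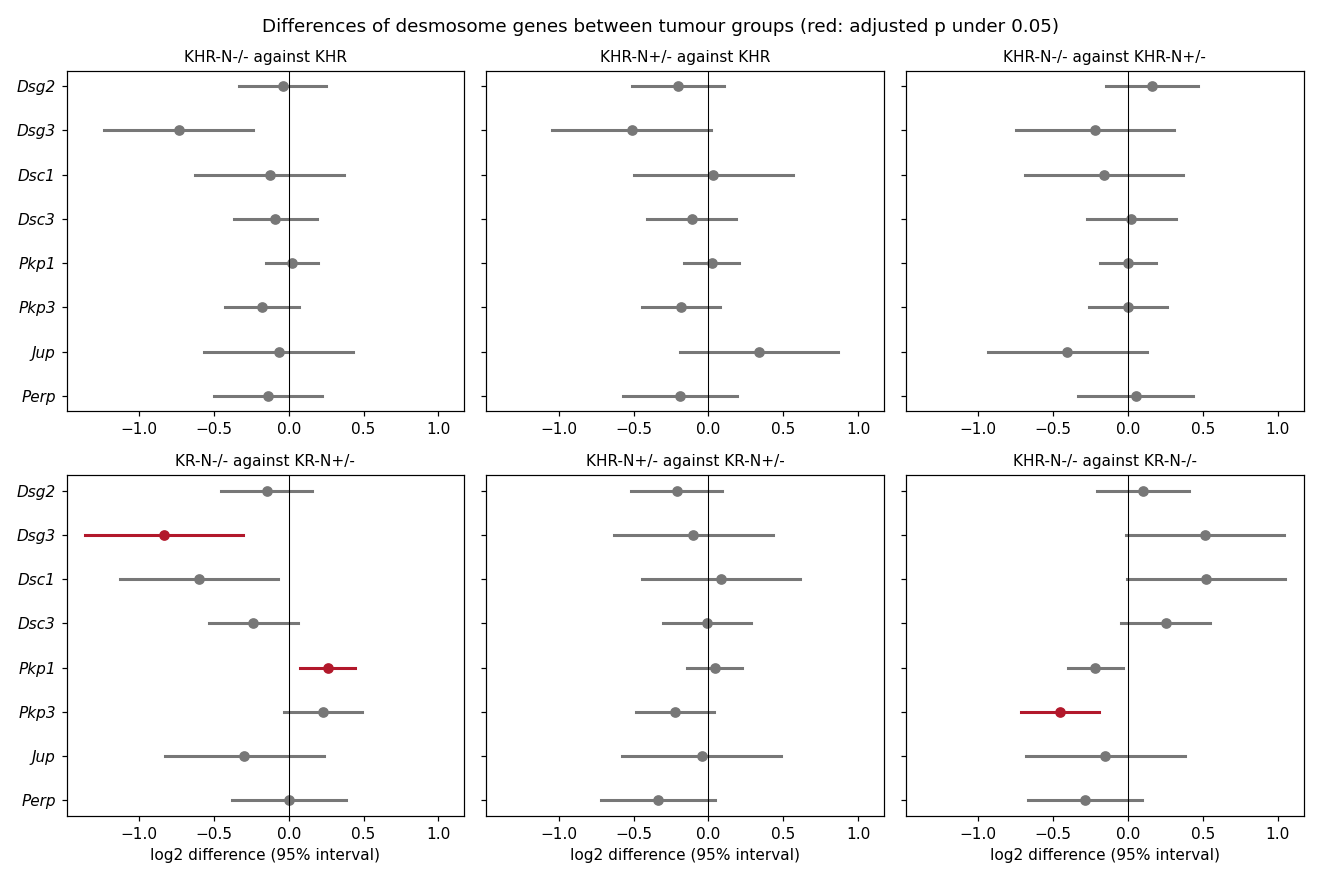
Each panel shows 1 comparison, with the limma log2 difference of each desmosome gene as a point and its 95% interval, not adjusted for the number of genes, as a line; red marks an adjusted p under 0.05. Dsg3 (-0.84) and Pkp1 (0.26) are red in KR-N-/- against KR-N+/-, and Pkp3 (-0.45) is red in KHR-N-/- against KR-N-/-. With median scaling Pkp3 was 0.18 there, where the median of all genes was 0.39.

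No member passed in the 4 remaining comparisons of the limma fit. In KHR-N-/- against KHR tumours 7.34% of all genes passed, and 1 of 8 members (Dsg3) had an unadjusted p under 0.05; 7 of 8 members were below 0, with a median of -0.11 (all genes 0.01). With median scaling only Dsg3 (-0.57) and Pkp3 (-0.09) were below 0. The members then stood at -0.69 (Dsg3) to -0.03 (Jup) relative to the median of all genes, which was 0.11. In KHR-N+/- against KHR tumours 1.25% of all genes passed, and no member had an unadjusted p under 0.05. The same was true of KHR-N-/- against KHR-N+/- tumours (0.103% of all genes) and of KHR-N+/- against KR-N+/- tumours (5.57%). No member was without overlap in these 4 comparisons, where 5.15%, 3.39%, 4.91% and 9.4% of all genes were. The member medians in the last 3 comparisons were -0.15, 0.00 and -0.07, beside 0.00, 0.01 and 0.01 over all genes.

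The interaction, the N-/- minus N+/- difference in the KHR type less that in the KR type, asked whether the types differed. It was 0.61 (SE 0.36, interval -0.13 to 1.36, adjusted p = 0.701, limma) for Dsg3, 0.44 (interval -0.31 to 1.19) for Dsc1 and -0.26 (interval -0.52 to 0.00, adjusted p = 0.611) for Pkp1. No member had an unadjusted p under 0.05, and 0% of all genes passed after adjustment, with 793 at an unadjusted p under 0.05. The calls for Dsg3 and Pkp1 in the KR type are therefore not shown to differ from the KHR type.

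**Figure D3:**
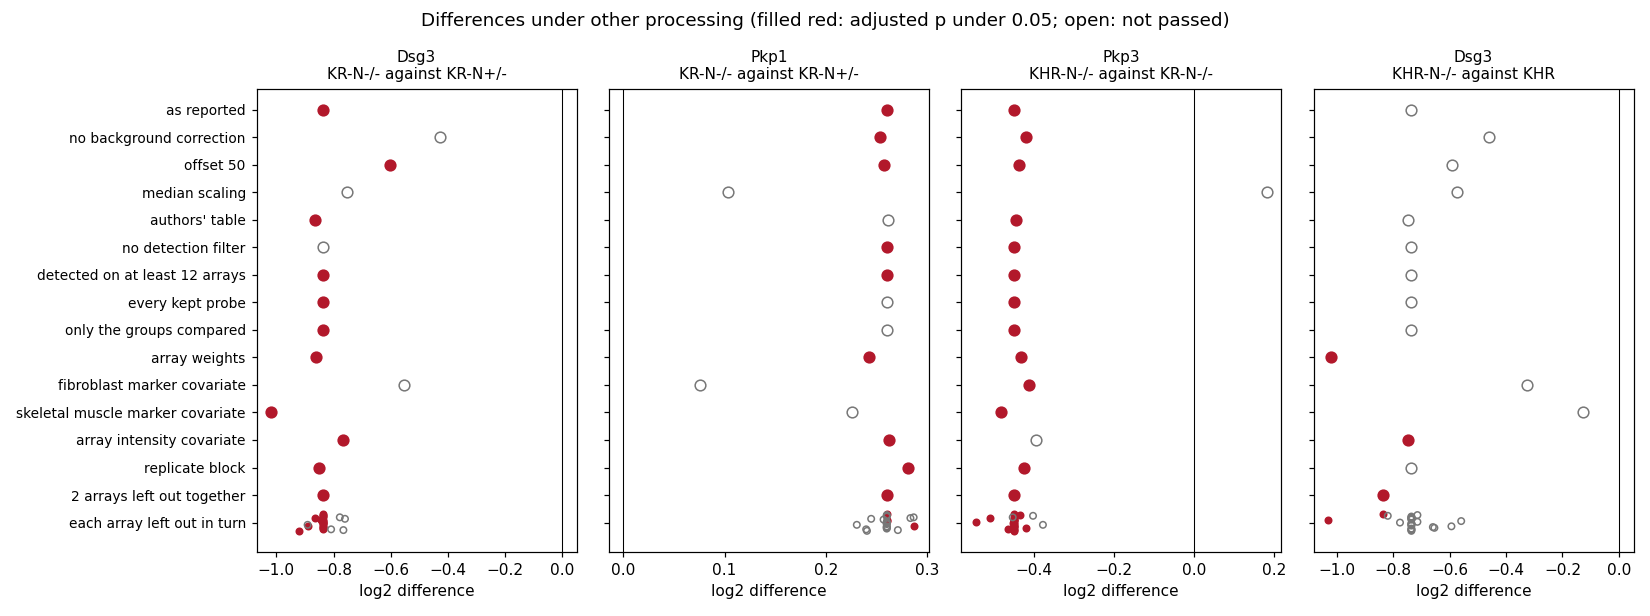
For 4 differences, the log2 difference under each alternative setting is plotted as a large point and, in the lowest row, under each single tumour left out as small points; filled red points had an adjusted p under 0.05. Dsg3 in KR-N-/- against KR-N+/- stays between -1.02 and -0.43, and Dsg3 in KHR-N-/- against KHR (-0.73) is red in a minority of settings. Pkp3 is at 0.18 with median scaling, where the median of all genes was 0.39.

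Members did not move as 1 block from tumour to tumour. After the group means were removed, the 28 pairs of measured members had Pearson correlations over 23 arrays of -0.47 to 0.72, with 16 above 0. The closest pairs were Pkp3 with Jup (0.72), Dsc1 with Pkp3 (0.55) and Dsg3 with Dsc1 (0.51). The most opposed were Dsc1 with Pkp1 (-0.47) and Dsg3 with Perp (-0.44). These are descriptions, since all values of an array share its normalization.

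Over tumours, the mean of the 8 measured members was set against the means of the other lists. With the epithelial markers outside desmosomes, within groups Pearson's r was 0.79 and Spearman's rho 0.56 over 23 arrays, and r was 0.60 without KHR replicates 4 and 2, the arrays farthest from the median marker level. The other epithelial lists differed, with r of 0.72 for other desmosome family genes, 0.65 for tight junction genes, 0.51 for desmosome regulators, 0.15 for the 17 keratins and -0.26 for adherens junction genes. It was -0.54 for macrophage, -0.52 for skeletal muscle and -0.35 for fibroblast markers. The member mean itself was lowest in KHR replicate 4 (-0.24) and highest in KHR replicates 2 and 3 (0.33 and 0.35), each value relative to the mean over all arrays.

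**Figure D4:**
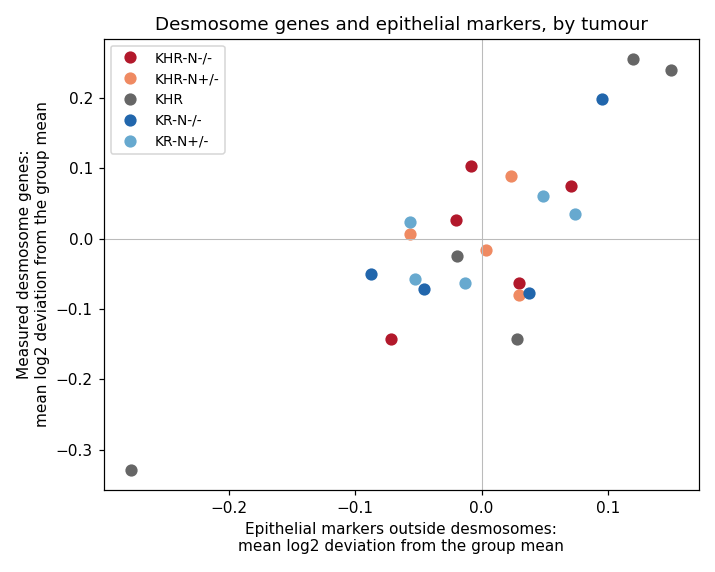
Each point is 1 tumour; the x axis is the mean log2 level of 21 epithelial markers outside desmosomes and the y axis that of the 8 measured desmosome genes, both as deviations from the group mean. The KHR tumour at the lower left is replicate 4, and r is 0.79 with it and 0.60 without it and KHR replicate 2.

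The genes whose pattern was most like the member mean within groups, over 23 arrays, were Castor2 (r = 0.87), Gm5477 (0.85), Eloa (0.83), Lgalsl (0.82), Socs6 (0.82) and Dsg1b (0.81). Without KHR replicates 4 and 3 these values were 0.77, 0.72, 0.73, 0.72, 0.66 and 0.65. Dsg1b, a desmoglein 1 gene of the same cluster, is itself a desmosomal cadherin.

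Among the remaining desmosome family and cornified desmosome genes, 6 of 10 listed were measured (Dsg1b, Dsg1c, Dsg4, Pkp2, Cdsn and Ppl), and Ppl alone passed anywhere. Periplakin (Ppl), a plakin that links keratin to desmosomes and the cornified envelope, averaged 9.86 ± 0.14 in KR-N-/- tumours (n = 4) and 10.75 ± 0.16 in KR-N+/- tumours (n = 5), a fall of -0.89 (SE 0.17, adjusted p = 0.00171, limma). A dimmer Ppl probe gave -0.32 (adjusted p = 0.31 over all probes), and with the fibroblast covariate the fall was -0.38 (adjusted p = 0.452). Ppl was higher in KHR-N-/- tumours (10.46 ± 0.25, n = 5) than in KR-N-/- tumours by 0.60 (adjusted p = 0.0228). Dsg1b was at 6.53 ± 0.30 in KHR-N-/- tumours and 7.25 ± 0.69 in KHR tumours (n = 5 each), a difference of -0.72 that did not pass (adjusted p = 0.0641, limma).

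Several genes that act on desmosomes fell in the KR type. Of 16 measured regulators, 5 fell and none rose in KR-N-/- against KR-N+/- tumours, with a median of -0.26 (all genes 0.04); 6.63% of all genes fell in this comparison. Klk6 fell by 1.54 (adjusted p = 0.000908, limma), Klk14 by 1.53 (0.0383) and Klk7 by 0.92 (0.00124). Klk7 and Klk14 are kallikrein proteases, and in human skin they cut corneodesmosomes as cells are shed. The other two that fell, chosen for naming after their values were seen, were Grhl1 (-0.68, adjusted p = 0.0132), a transcription factor that activates Dsg1 genes, and the kinase gene Ripk4 (-0.32, adjusted p = 0.0268); a second Grhl1 probe gave -0.50 (adjusted p = 0.0833). None of these 5 falls passed with the fibroblast covariate, where they stood at -0.71 (Klk6) to -0.34 (Ripk4). That covariate followed the group here, so the part of fibroblasts was not tested.

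In KHR-N-/- against KHR tumours 2 of the 16 regulators fell and none rose, with a median of -0.09, where 7.34% of all genes passed in either direction. Klk14 fell by 1.75 (adjusted p = 0.0215, limma) and Adam17, a protease that sheds the ectodomain of Dsg2, by 0.64 (adjusted p = 0.0116). With the fibroblast covariate Adam17 stood at 0.07 (adjusted p = 0.948). Between the N-/- groups 12.8% of all genes passed in either direction. Klk6 (1.61, adjusted p = 0.000495, limma), Klk5 (1.32, 0.0313) and Klk7 (0.84, 0.00268) were higher in KHR-N-/- than in KR-N-/- tumours, and none of the 16 was lower. These 3 passed with the fibroblast covariate too, but the fibroblast mean differed little between these groups. It was 7.72 ± 0.26 in KHR-N-/- and 7.55 ± 0.13 in KR-N-/- tumours.

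Keratins are the filaments that desmosomes anchor. Of 17 measured, Krt4 (-2.16, adjusted p = 0.00966, limma) and Krt13 (-1.48, adjusted p = 0.00398), the pair of mucosal differentiation keratins, fell in KR-N-/- against KR-N+/- tumours and none rose. In that comparison 6.63% of all genes fell. Krt13 averaged 11.89 ± 0.65 in KR-N-/- tumours and 13.37 ± 0.28 in KR-N+/- tumours. In KHR-N-/- against KHR tumours, where 7.34% of all genes passed in either direction, Krt17 alone passed, with a fall of -0.37 (adjusted p = 0.0097, limma). None of these passed with the fibroblast covariate, at -0.47 for Krt4, -0.60 for Krt13 and -0.38 for Krt17. That covariate followed the group in both comparisons.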

How the data were processed

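The deposited scanner table gives, per the file headers, a mean intensity, a number of beads (a count) and a detection p-value for each probe and array; its intensity is linear and neither background-subtracted nor normalized, judged from the values. The authors' processed table holds linear intensity after background subtraction (26.6% of values below 0, column medians 4.44 to 4.55, Spearman correlation with the scanner intensity 1); how it was normalized is not stated, and it was an alternative only. Per the submitters' processing notes the software included GenomeStudio and Partek, without versions. Probes were read on 27.0 to 40.4 beads on average.

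Intensities were corrected with normexp from the detection p-values (offset 16), normalized by quantiles and logged to base 2 (log2) in limma 3.58.1 under R 4.3.3, with tables read by the data.table package. Of 25697 probes, 23978 had 1 gene symbol, none had several and 1719 had none. Probes detected on at least 4 arrays were kept (13831), with the brightest per gene. A 5-group model was fitted to all 23 arrays with lmFit and eBayes (18 residual degrees of freedom). Its test was checked on simulated data. SE is the moderated standard error and intervals are 95%. No slide is given. Arrays correlated at 0.939 to 0.993. Marker list means average the measured genes of a list. The epithelial marker list shares Krt5, Krt8, Krt14 and Krt18 with the keratins and Sfn and Trp63 with the regulators. It also shares Cldn4 and Cldn7 with the tight junction genes and Cdh1 with the adherens junction genes.

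The members and lists were chosen with earlier results of these data known. The text names all members, Notch1, up to 3 passing genes per list and comparison, and the 6 genes most like the member mean; genes beyond these are said to be chosen after their values were seen. Whether replicate numbers pair tumours was checked from the correlations of same-numbered tumours after group means were removed. All 4 pairs of KHR-N-/- with KHR-N+/- were above 0.1 (0.14 to 0.28), so the block fit was held beside that comparison; no other comparison met this, and the labels name nothing shared by a number. Alternatives were no background correction, an offset of 50, median scaling, the authors' table (floored at 1), no detection filter, detection on at least 12 arrays, every probe, only the groups compared, array weights, fibroblast, muscle or intensity covariates, a replicate block, and arrays left out. No sequence or coordinate is given.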

Additional observations from a re-analysis of the deposited data

Results flagged for a closer look

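In 40 combinations of a measured desmosome gene and a group, 3 tumours stood apart from the rest of their group by Dixon's test at the 95% level. Chance alone marks about 1 in 20 groups. Jup read 5.55 in KHR replicate 4, against 6.66 to 6.92 in the other KHR tumours. Dsg2 read 5.18 in KR-N+/- replicate 1, against 4.61 to 4.78 in the other KR-N+/- tumours. Dsc3 read 4.98 in KR-N-/- replicate 4, against 4.82 to 4.85 in the other KR-N-/- tumours.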

How the results depend on the processing

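The counts of passing desmosome genes are small, so most alternatives move them. KHR-N-/- against KHR had 0, but 1 with array weights, with the intensity covariate and with KHR replicate 5 and KHR-N+/- replicate 3 left out together (0 to 1 with single tumours left out). KHR-N+/- against KHR had 0, but 1 with array weights (0 to 1). KR-N-/- against KR-N+/- had 2, but 1 without background correction, in the authors' table, with no detection filter, with every kept probe and with the muscle marker mean in the model, 0 with median scaling or the fibroblast covariate, and 3, Dsc1 included, with array weights, the replicate block and both arrays out (0 to 3, with 3 without KHR replicate 5). KHR-N+/- against KR-N+/- had 0, but 3 with median scaling. KHR-N-/- against KR-N-/- had 1, but 2 without background correction, with offset 50 and with both arrays out, 3 in the fit of only these groups and with the fibroblast covariate, 4 with array weights, and 0 with median scaling and with the intensity covariate (0 to 2). The F test called 2, but 4 with array weights and 1 with the muscle or intensity covariate (1 to 4). KHR-N-/- against KHR-N+/- and the interaction stayed at 0 members in all settings run.

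With median scaling Pkp3 turned to 0.70 (adjusted p = 0.0475, limma) in KHR-N+/- against KR-N+/- tumours, where the median of all genes was 0.65. It turned to 0.18 in KHR-N-/- against KR-N-/- tumours, where that median was 0.39. With the fibroblast covariate Ocln (0.0288), Adam17 (0.0740) and Prss8 (0.634) turned in KHR-N-/- against KHR tumours, and Prss8 (0.0252) in KR-N-/- against KR-N+/- tumours; the cause was not tested. Of 2072 recomputed member differences, 132 changed sign where neither value passed. The number of genes called over the whole table moved too: 3 to 2058 (1581 as reported) in KR-N-/- against KR-N+/-, 78 to 2230 (714) in KHR-N-/- against KHR, 0 to 891 (122) in KHR-N+/- against KHR, 0 to 265 (10) in KHR-N-/- against KHR-N+/-, 24 to 4543 (542) in KHR-N+/- against KR-N+/-, and 290 to 2265 (1247) in KHR-N-/- against KR-N-/-.

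Same-numbered tumours deviated together in all 4 pairs only for KHR-N-/- with KHR-N+/-, where the block left 0 members and 7 genes called (10 without it). Over the other comparisons the correlations ran from -0.33 to 0.48, so the number is not shown to pair those tumours. So few pairs cannot settle it. Mean beads per probe were higher at the last number than at number 1 in every group. They were 27.0 and 39.6 in KHR-N-/- replicates 1 and 5, and 29.2 and 40.4 in KR-N+/- replicates 1 and 5. A technical factor that follows the number was not tested beyond the replicate block. With the replicate block Dsg3 stood at -0.85, Pkp1 at 0.28 and Pkp3 at -0.43 in their called comparisons and stayed called. The block added 1 call, Dsc1 (-0.72, adjusted p = 0.0322, limma) in KR-N-/- against KR-N+/-. The signal over background limits Dsg2, Dsc3 and Perp most, and Dsc2 wholly.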

Other observations

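Junction genes outside desmosomes changed in both types. Of 13 measured tight junction genes, 4 fell and none rose in KR-N-/- against KR-N+/- tumours, with the claudin genes Cldn17 (-2.59, adjusted p = 0.00111, limma), Cldn1 (-1.10, adjusted p = 0.00269) and Cldn23 (-0.67, adjusted p = 0.0417) leading and a median of -0.30 (all genes 0.04). In that comparison 6.63% of all genes fell. In KHR-N-/- against KHR tumours, where 7.34% of all genes passed in either direction, 2 of 13 fell, Cldn17 (-1.62, adjusted p = 0.0192, limma) and occludin (Ocln, -0.60, adjusted p = 0.0229). With the fibroblast covariate none of these passed, with Cldn17 at -1.74, Cldn1 at -0.60 and Cldn23 at -0.32 in the KR type and Cldn17 at -0.38 in the KHR type. That covariate followed the group in both comparisons.

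Of 11 measured adherens junction genes, Cdh3, which encodes P-cadherin of basal cells, rose in KR-N-/- against KR-N+/- tumours (0.62, adjusted p = 0.00209, limma) and in KHR-N-/- against KHR tumours (0.49, adjusted p = 0.00873), where Vcl (-0.55, adjusted p = 0.0116) and Nectin4 (-0.43, adjusted p = 0.0282) fell. The 3 dimmer Cdh3 probes gave 0.30 to 0.61 in the KR type and 0.05 to 0.37 in the KHR type. Cdh3 stood at 0.47 in the KR type and 0.28 in the KHR type with the fibroblast covariate, and neither passed. That covariate followed the group in both comparisons.

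Perp is a p53 target. Of 17 measured p53 target genes, Bbc3 (0.63, adjusted p = 0.00517, limma), Zmat3 (0.53, adjusted p = 0.00651) and Polk (0.43, adjusted p = 0.0274) rose in KHR-N-/- against KHR tumours, and Bbc3 (0.61, adjusted p = 0.00673) and Apaf1 (0.44, adjusted p = 0.0498) rose in KR-N-/- against KR-N+/- tumours. None of the 17 fell in either; 9.62% of all genes rose in the KR comparison, and 7.34% passed in either direction in the KHR one. With the fibroblast covariate Bbc3 stood at 0.23 and Zmat3 at 0.21 in the KHR type, and Bbc3 at 0.34 and Apaf1 at 0.04 in the KR type, and none passed. That covariate followed the group in both comparisons. Other probes of Bbc3 and Apaf1 gave -0.08 to 0.15 in these comparisons, and Apaf1 passed in 6 of 14 alternative settings.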
